A study of Mus musculus with 4 samples.

Results

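The genes described here are those of the mitochondrial ribosomal proteins in late 2-cell mouse embryos. They were taken as every row of the deposited tables whose symbol is Mrpl or Mrps with a number and an optional letter a to c, without pseudogene names, and rows of 1 gene identifier were summed. This gave 77 genes of 47445 gene identifiers, 48 named for the large subunit (Mrpl) and 29 named for the small subunit (Mrps). The embryos came from C57BL/6N mice, with 8-week-old females. The Uqcc3 siRNA group (2 libraries) received 1 siRNA against Uqcc3 at 5 µM, injected at 8 hpi as the labels write it. The control group (2 libraries) received a negative-control siRNA at that dose and time according to the treatment protocol, although its treatment label is none and the design text calls these embryos normal. Embryos of normal morphology were collected, in numbers per library that are not given in the sources used here. RNA was measured as FPKM, a fragment count relative to transcript length and to the size of the library, so that levels of different genes can be compared per length.

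Mitochondrial ribosomes translate the few mRNAs of the mitochondrial genome, all of which encode subunits of the respiratory chain and the ATP synthase. Their RNA comes from the mitochondrial genome, whereas all their proteins are encoded in the nucleus, made in the cytosol and imported. The small subunit reads the mRNA, and the large subunit forms the peptide bond and releases the chain into the inner membrane. Uqcc3, the targeted gene, encodes an assembly factor of respiratory complex III, which holds a subunit made on these ribosomes.

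The 4 libraries differed in ways that touch every value below. In control replicates 1 and 2 Uqcc3 had 147 and 211 FPKM, against 23.7 and 19.8 FPKM in siRNA replicates 1 and 2. Its siRNA mean was 12.1% of the control mean, with a log2 difference of -2.97 (SE 0.63) and an adjusted p of 0.745 (limma). The depth implied by the bounds of the deposited values was 16200000 and 18100000 fragments in the controls and 11200000 and 11500000 in the siRNA libraries. In siRNA replicate 2, 9771 genes reached 1 FPKM, against 11818 to 12202 in the other libraries. The 18S rRNA-like gene Rn18s-rs5 stood at 14506 FPKM there, against 183 to 1023 in the others. The 13 mitochondrial mRNAs held 3.41% of all FPKM in siRNA replicate 2 and 9.98% to 17.9% in the others. All 9 markers of the 2-cell embryo were tested and together held 1247 and 1609 FPKM in the controls, 828 and 438 in the siRNA libraries. The 7 oocyte markers together held 313 to 373 FPKM in the 4 libraries, but single ones moved in opposite directions. Zp3 had 54.6 and 66.4 FPKM in the controls and 32.4 and 5.39 with siRNA. Gdf9 had 44.3 and 69.8 in the controls and 52.1 and 177 with siRNA. Of 10 cumulus and granulosa markers 1 was tested, Tnfaip6, at 0.602 to 14.1 FPKM. Their sum was 0.882 to 14.1 FPKM, and Amh and Fshr were at 0 in all 4. Sperm markers summed to 22.6 to 47.1 FPKM, blood markers to 8.88 to 28.5 with Hbb-bs at 0, and blastocyst markers to 3.36 to 16.8 with Cdx2 and Sox17 at 0. The part of these library differences in the results below was not tested.

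Nearly all mitochondrial ribosomal protein genes were expressed in the control embryos, at levels that spanned more than 2 orders of magnitude. Of the 77 genes, 11 had a control mean over 100 FPKM, 48 lay between 10 and 100, 15 between 1 and 10, and 3 under 1. The median control mean was 32.0 FPKM. The summed level of the 77 genes was 4216 and 3963 FPKM in control libraries and 2829 and 1838 FPKM in the siRNA libraries. As a share of all FPKM in a library this was 0.617% and 0.570% in the controls and 0.475% and 0.421% in the siRNA libraries. Both siRNA libraries therefore lay below both controls on either scale. In such libraries of whole embryos, fewer expressing cells and less RNA per cell cannot be told apart.

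The highest gene in the controls was Mrps14, a small subunit protein with a bacterial homolog. It had 310 and 373 FPKM in the controls, 321 FPKM in siRNA replicate 1 and 86.5 FPKM in replicate 2, so 1 siRNA library lay between the controls and the other far below them. Mrps23, a small subunit protein found only in mitochondrial ribosomes, showed 144 and 147 FPKM in control libraries and 153 and 10.1 FPKM in the siRNA libraries. Mrps30, named for the small subunit but placed in the large subunit by structures, showed 127 and 112 FPKM in control libraries and 68.0 and 56.8 FPKM with siRNA, without overlap. Mrps21 (108 and 44.3 FPKM in the controls, 86.7 and 31.7 with siRNA) overlapped between the groups. These 4 genes, the highest of the small subunit by the mean over all 4 libraries, held 47.3% and 48.6% of the summed Mrps level in the controls, against 54.8% and 32.8% with siRNA. By the control mean alone Mrps24, described below, and Mrps6 ranked above Mrps21.

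The 4 large subunit genes with the highest mean over all 4 libraries held 27.8% to 32.8% of the Mrpl sum in each library. Mrpl40 was first by this mean, with 237 and 213 FPKM in control libraries and 175 and 124 FPKM with siRNA. Mrpl22, whose bacterial homolog lines the exit tunnel for the growing chain, showed 249.8 and 169 FPKM in control libraries and 95.7 and 61.5 FPKM with siRNA. Mrpl13 (173 and 188 FPKM in the controls, 145 and 123 with siRNA) and Mrpl18 (179 and 145 in the controls, 137 and 71.2 with siRNA) followed. By the control mean alone Mrpl42, described below, ranked above Mrpl13 and Mrpl18. Neither siRNA library reached the lower control in any of these 4 genes. The log2 difference of Mrpl13 was nevertheless 0.0055 as TPM, and with a length correction those of Mrpl18 and Mrpl40 were 0.040 and 0.12. The control means of Mrpl13 and Mrpl18, 180 ± 10.7 and 162 ± 24.0 FPKM (SD, n = 2), did not differ beyond their spread.

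The lowest tested genes of each subunit were taken by the mean over all 4 libraries. Mrpl19, whose bacterial homolog sits at the interface of the subunits, was listed at 2.46 and 0 FPKM in control libraries and at 1.49 and 0.0487 with siRNA, on at most 11.9 implied fragments. Mrpl36 stood at 6.99 and 1.80 FPKM in control libraries and 4.82 and 0.103 FPKM with siRNA. In both genes siRNA replicate 1 lay between the controls, and siRNA replicate 2 was below both controls for Mrpl36 only. Mrps27 (1.18 and 1.30 FPKM in the controls, 0.613 and 0.0461 with siRNA) and Mrps5 (1.75 and 0.186 in the controls, 1.81 and 0.546 with siRNA) were the lowest of the small subunit by this mean. The filter of 1 FPKM in 2 libraries left 3 genes untested, namely Mrpl11, Mrpl23 and Mrps35. Mrpl11 stood at 0.325 and 0.286 FPKM in control libraries and at 0.756 and 0 with siRNA. Mrpl23 was listed at 0 in 3 libraries and at 0.308 FPKM in siRNA replicate 1, whereas its pseudogene Mrpl23-ps1 stood at 4.61 to 7.83 FPKM in the 4 libraries, so its own level is uncertain. Mrps35 was listed at 0 in control replicate 1 and siRNA replicate 1, at 4.55 FPKM in control replicate 2 and at 0.396 in siRNA replicate 2.

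**Figure D1:**
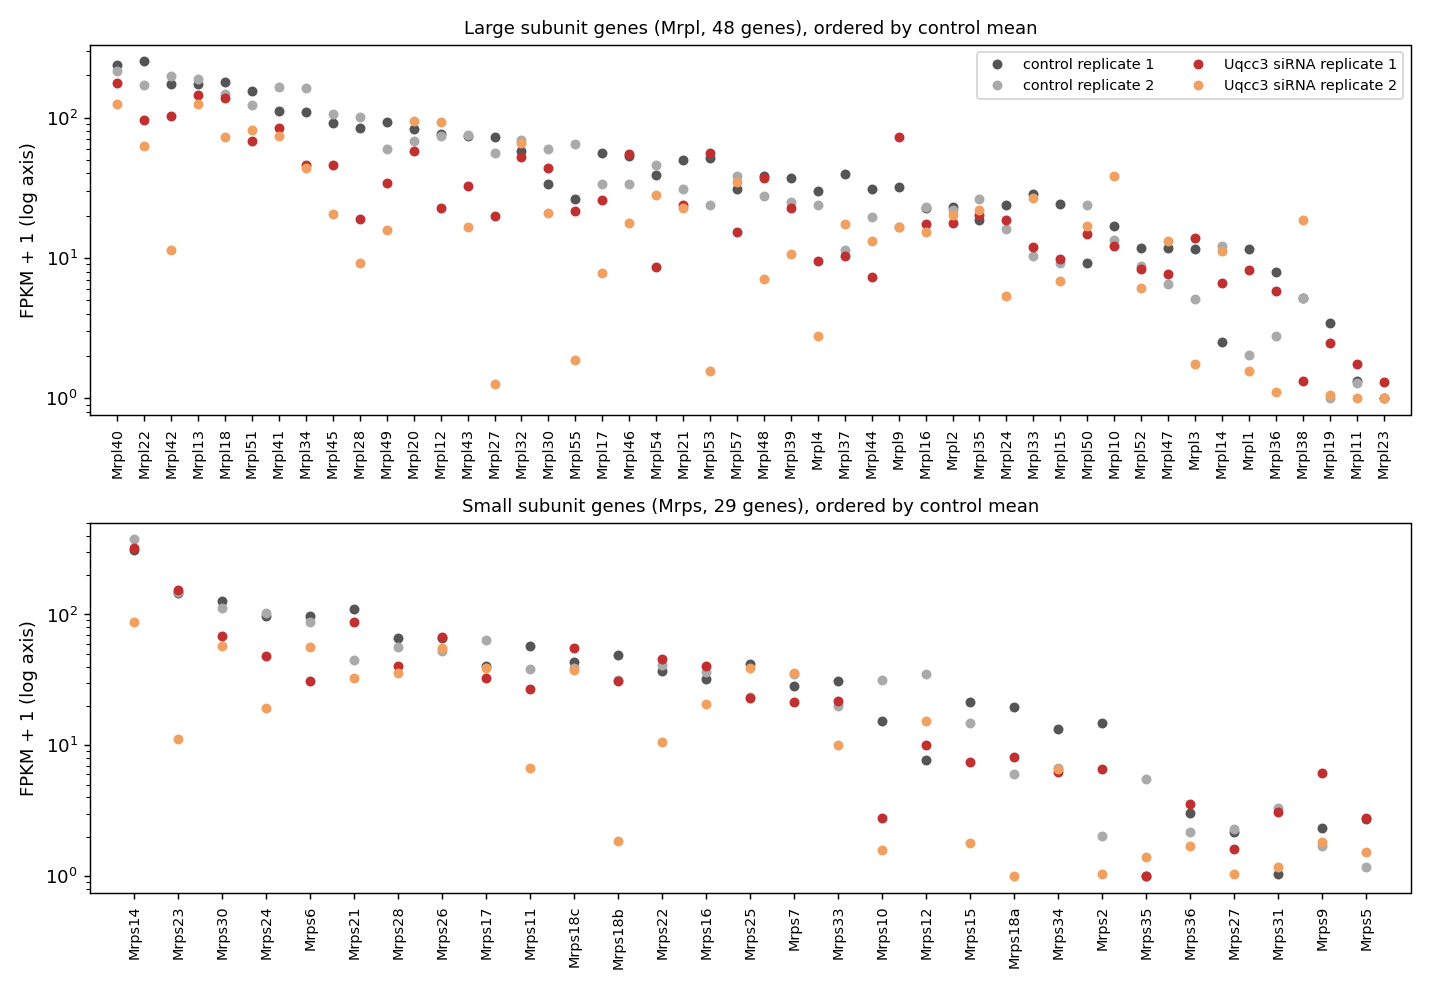
FPKM + 1 on a log axis for each of the 48 Mrpl genes (top) and 29 Mrps genes (bottom), ordered by control mean, with 1 point per library. The median over the 74 tested genes is 36.1 and 31.5 FPKM in the controls and 21.2 and 15.3 FPKM in siRNA replicates 1 and 2. For some genes siRNA replicate 1 lies far below both controls, such as Mrps10 (1.77 FPKM) and Mrpl28 (17.9 FPKM). The points of siRNA replicate 2 lie near 1 on this axis for several genes, such as Mrpl27 (0.254 FPKM) and Mrps18b (0.868 FPKM).

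The first comparison asked which of these genes differed between embryos with Uqcc3 siRNA and controls. No mitochondrial ribosomal protein gene passed the threshold: 0 of 74 tested had an adjusted p under 0.05 (limma), as did 0% of all 12390 tested genes. Their adjusted p ranged from 0.745 to 0.999. Leaving out siRNA replicate 1 left a lone siRNA library, to which the fit gave the spread of the controls, so its calls are not given. Relative to the median of all tested genes, the Mrpl and Mrps medians in that fit were -0.31 and -0.34. With all 4 libraries, 10 genes had an unadjusted p under 0.05 (limma), 8 Mrpl and 2 Mrps, all lower with siRNA. The share over all tested genes was 5.96% in either direction and 5.21% lower. With TPM, median-of-ratios scaling, quantile normalization and length correction the 10 became 3, 3, 3 and 4 of 74, beside 3.85%, 3.71%, 3.75% and 4.02% of all genes, shares near that of the family. Fits without a control replicate likewise left a lone library in its group, so counts by p are not given for them. Both siRNA libraries lay below both controls in 34 of the 74 genes, 23 of 46 Mrpl and 11 of 28 Mrps, beside 30.0% of all tested genes. No gene lay above both controls in both siRNA libraries, beside 8.6% of all. Other scalings brought the count nearer to the background, to 19 of 74 beside 21.4% of all genes as TPM, 22 beside 19.8% with median-of-ratios scaling, 19 beside 18.7% with quantile normalization and 16 beside 19.9% with a correction for transcript length. Under these scalings 2, 3, 8 and 3 of the 74 genes lay above both controls.

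The median log2 difference was -0.70 over the 46 Mrpl genes and -0.72 over the 28 Mrps genes, beside -0.39 over all tested genes. Differences are on log2(FPKM + 1), which understates changes of low genes. The median of the mean level over the 4 libraries was 29.3 FPKM in the 74 genes, beside 7.42 over all tested genes. Medians and shares over all tested genes thus come from a set at lower levels. Relative to the median of all genes, Mrpl and Mrps genes stood at -0.31 and -0.33, and at -0.24 and -0.23 with a pseudocount of 0.1 FPKM. Other scalings moved the median of all genes to -0.085 (TPM), -0.084 (median of ratios), 0.013 (quantiles) and -0.00063 (length), and the 2 medians relative to it stayed between -0.31 and -0.17. They were -0.11 and -0.078 without siRNA replicate 2, -0.20 and -0.43 without control replicate 1, -0.62 and -0.35 without control replicate 2, -0.62 and -0.69 with no filter on low values and -0.16 and -0.28 with a filter at 5 FPKM. Among the 34 genes without overlap the siRNA mean was 5.28% to 82.9% of the control mean, with a median of 38.7%.

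Of the 12 genes with the smallest unadjusted p, 10 belong to the large subunit, and 6 of these have bacterial homologs. Among all 74 tested genes 46 are Mrpl, and 28 of 48 large subunit genes by structure have bacterial homologs. Mrpl28, with the smallest p, lies at chr17:26123520-26126613 on the plus strand (mm10) and has 5 exons. It stood at 83.7 and 99.1 FPKM in the controls (mean 91.4 ± 10.9, SD, n = 2) and at 17.9 and 8.13 FPKM with siRNA (13.0 ± 6.88), a log2 difference of -2.81 (SE 0.72, limma adjusted p = 0.745). Both siRNA libraries were far below both controls, on 75.3 to 915 implied fragments. Mrpl27 (chr11:94653767-94660089, plus strand), whose bacterial homolog reaches towards the site of peptide bond formation, stood at 71.8 and 54.9 FPKM in control libraries and at 18.9 and 0.254 FPKM with siRNA. Its log2 difference of -3.67 (SE 1.26) was the largest of the 74 in size, but siRNA replicate 2 minus replicate 1 was -3.99 and the lower rested on 0.511 implied fragments.

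Mrpl34 (chr8:71464926-71465752, plus strand) was the gene of this group on which the siRNA libraries differed least. It showed 108 and 163 FPKM in control libraries and 45.2 and 43.1 FPKM with siRNA, a log2 difference of -1.56 (SE 0.62). Mrpl4, another protein of the exit tunnel in bacteria, showed 28.9 and 22.9 FPKM in control libraries and 8.54 and 1.79 with siRNA. Mrpl22, described above with the highest genes, had a log2 difference of -1.41 (SE 0.62). Mrpl55 stood at 25.2 and 64.3 FPKM in control libraries and at 20.6 and 0.883 with siRNA, so that siRNA replicate 1 lay close to the lower control.

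The other large subunit genes of these 12 encode proteins without a bacterial homolog. Mrpl45, which anchors the ribosome to the inner membrane near the tunnel exit, showed 91.0 and 105 FPKM in control libraries and 44.9 and 19.4 with siRNA. Mrpl42 showed 173 and 195 FPKM in control libraries and 102 and 10.4 FPKM with siRNA. Mrpl43 was at 72.6 and 74.2 FPKM in control libraries and at 31.6 and 15.7 with siRNA. The control values of Mrpl43 were nearly equal, and its siRNA mean was 32.2% of the control mean. Mrpl49 stood at 92.6 and 58.9 FPKM in control libraries and at 33.0 and 14.8 FPKM with siRNA.

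The 2 small subunit genes of these 12 have bacterial homologs. Mrps10 (chr17:47368887-47381417, plus strand, 7 exons), a protein of the head of the small subunit, stood at 14.2 and 30.5 FPKM in control libraries and at 1.77 and 0.592 FPKM with siRNA. Its siRNA mean was 5.28% of the control mean, the lowest share among the 34 genes without overlap, on 5.95 and 0.946 implied fragments in the siRNA libraries. Mrps24 showed 95.9 and 101 FPKM in control libraries and 47.1 and 18.2 with siRNA. In each of the 12 genes siRNA replicate 2 was the lower siRNA library.

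**Figure D2:**
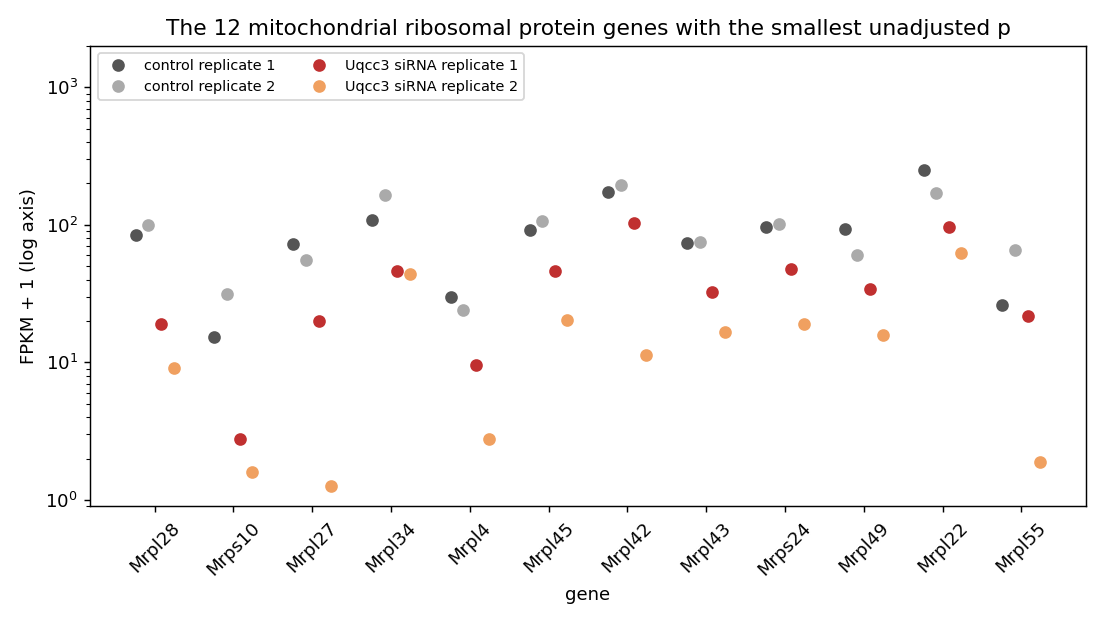
FPKM + 1 on a log axis in each of the 4 libraries for the 12 genes with the smallest unadjusted p, ordered by p from left. Both siRNA points lie below both control points in every gene, and the siRNA points are close together for Mrpl34 (45.2 and 43.1 FPKM) and far apart for Mrpl27 (18.9 and 0.254 FPKM).

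Promoter sequences of 68 of the 77 genes were found by symbol in RefSeq (GRCm38.p6) as windows of 250 bases before to 50 after the start. The 4 shown here, each for the 250 bases before the start, belong to genes described here and show the motifs searched. Capitals mark a match.
Mrpl28 at chr17:26123253-26123502, plus strand: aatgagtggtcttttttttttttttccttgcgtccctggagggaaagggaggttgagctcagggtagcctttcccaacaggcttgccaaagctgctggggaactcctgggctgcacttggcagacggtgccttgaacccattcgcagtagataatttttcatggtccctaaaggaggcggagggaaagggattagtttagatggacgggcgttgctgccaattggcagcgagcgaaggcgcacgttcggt
Mrpl27 at chr11:94653541-94653790, plus strand: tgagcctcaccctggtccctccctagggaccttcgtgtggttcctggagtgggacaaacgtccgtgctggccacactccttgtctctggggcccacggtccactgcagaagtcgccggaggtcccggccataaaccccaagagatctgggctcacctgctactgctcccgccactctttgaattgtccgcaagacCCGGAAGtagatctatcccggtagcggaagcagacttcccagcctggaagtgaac
Mrpl34 at chr8:71464676-71464925, plus strand: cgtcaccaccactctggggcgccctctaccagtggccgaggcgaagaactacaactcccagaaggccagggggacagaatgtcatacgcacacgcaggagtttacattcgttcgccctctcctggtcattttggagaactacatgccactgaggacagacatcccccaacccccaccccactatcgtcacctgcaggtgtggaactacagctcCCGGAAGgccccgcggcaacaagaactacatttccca
Mrps11 at chr7:78782881-78783130, plus strand: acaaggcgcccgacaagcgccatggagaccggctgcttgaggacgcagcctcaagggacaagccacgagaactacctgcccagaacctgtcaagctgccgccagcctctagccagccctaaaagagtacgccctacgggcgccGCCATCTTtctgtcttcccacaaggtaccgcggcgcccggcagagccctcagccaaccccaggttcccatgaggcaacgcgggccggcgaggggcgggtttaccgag
The letters CCGGAAG, as bound by ETS factors such as GABPA (also called NRF-2), stand 55 bases before the start of Mrpl27 and 37 bases before that of Mrpl34. In Mrps11 the reverse complement of AAGATGGC, as bound by YY1, begins 107 bases before the start. The Mrpl28 window holds none of the motifs searched.

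On both strands of the whole windows, CCGGAAG was found in 25 of 68 genes (36.8%), beside 20.4% of tested genes and 9.93% of all genes in the table. AAGATGGC was found in 12 genes (17.6%), beside 5.58% and 3.19%. The NRF1 motif was found in 3 genes (4.41%, beside 2.50% and 1.07%), and TATAAA in 5 (7.35%, beside 9.64% and 15.7%). CCGGAAG was as frequent in genes below both controls in both siRNA libraries (37.9% of 29) as in the other tested genes of the family (37.8% of 37). It was found in 33.3% of 42 Mrpl and 42.3% of 26 Mrps genes. CCGGAAG and AAGATGGC can overlap in the letters AAG, and a match says only that the letters are there.

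The second comparison was between the large and the small subunit. Over both siRNA libraries, the median log2 difference of Mrpl genes minus that of Mrps genes was 0.018. The siRNA libraries taken singly gave -0.029 (replicate 1) and 0.023 (replicate 2), while control replicate 2 minus control replicate 1 gave -0.11 for the same genes. The difference between the subunits was thus smaller than that between the controls, and its sign turned with the scaling (-0.0057 as TPM). By level, the ratio of the summed Mrpl to the summed Mrps FPKM was 1.89 and 1.85 in the controls, against 1.47 and 2.26 with siRNA. Replicate 1 with siRNA was thus below both controls in this ratio and replicate 2 above them. Among the high genes in this ratio, Mrps14 and Mrps23 were near their control levels in siRNA replicate 1 and far below in siRNA replicate 2. Their part in the ratio was not tested.

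The names do not follow the structures in every case. Mrps18a and Mrps30 belong to the large subunit in structures of the mammalian ribosome, and Mrps36 is a component of the 2-oxoglutarate dehydrogenase complex. Grouped that way, 24 of 48 tested large subunit genes and 10 of 25 small subunit genes had both siRNA libraries below both controls, beside 30.0% of all tested genes, and the median of large minus small was -0.053. Of the 3 members of the S18 family, Mrps18a had the lowest control mean, 11.8 ± 9.57 FPKM (SD, n = 2). Those of Mrps18b and Mrps18c were alike, at 39.3 ± 12.3 and 40.3 ± 2.98 FPKM. Mrps18a stood at 18.6 and 5.02 FPKM in the controls, at 7.12 in siRNA replicate 1 and was listed at 0 in siRNA replicate 2. Mrps18b stood at 48.0 and 30.5 FPKM in control libraries and at 30.0 and 0.868 with siRNA, and Mrps18c at 42.4 and 38.2 in the controls and 54.1 and 36.9 with siRNA. The siRNA libraries were -3.02 and -4.05 log2 units apart for Mrps18a and Mrps18b (replicate 2 minus replicate 1) and -0.54 for Mrps18c. Mrps36 was low throughout, at 2.03 and 1.19 FPKM in control libraries and 2.54 and 0.709 with siRNA, and its pseudogene Mrps36-ps1 stood at 1.98 and 1.73 in the controls.

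Genes with bacterial homologs and genes found only in mitochondrial ribosomes were also set side by side. Of 44 tested genes with bacterial homologs, 19 had both siRNA libraries below both controls, with a median log2 difference of -0.66, beside 30.0% and -0.39 over all tested genes. Of 29 mitochondrion-specific genes, 15 did, with a median of -0.79. Within the large subunit the counts were 12 of 28 (median -0.67) and 12 of 20 (median -0.90), and within the small subunit 7 of 16 and 3 of 9. These are descriptions of the libraries with no test. The classes were taken from a list and not checked against protein sequences, so the counts are approximate. Mrps18a was classed as having a bacterial homolog and Mrps18b as mitochondrion specific, although both are of the S18 family. The class of Mrpl47, counted as mitochondrion specific, is also uncertain.

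**Figure D3:**
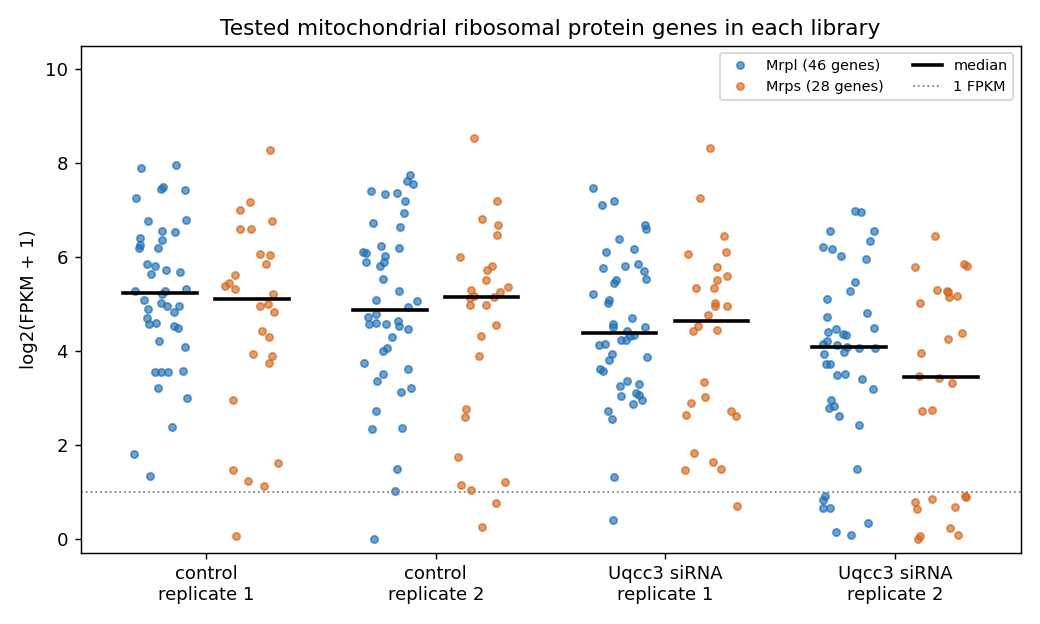
log2(FPKM + 1) of the 46 tested Mrpl and 28 tested Mrps genes in each library, with 1 point per gene, bars at the medians and a dotted line at 1 FPKM. The median FPKM is 36.9 and 28.2 in the controls and 19.9 and 15.8 with siRNA for Mrpl genes, and 33.6 and 34.2 against 24.1 and 9.89 for Mrps genes.

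The 2 siRNA libraries gave different pictures of the same family. The median log2 difference from the controls was -0.41 (Mrpl) and -0.38 (Mrps) in siRNA replicate 1 and -0.89 and -0.91 in siRNA replicate 2, beside -0.30 and -0.57 over all tested genes. In siRNA replicate 2, 7 of 46 Mrpl and 10 of 28 Mrps genes were under 1 FPKM, beside 28.0% of all tested genes. The siRNA libraries were more than 1 log2 unit apart in 39 of the 74 genes, beside 61.0% of all, and the controls in 18, beside 29.8%. The log2 difference was below 0 in 63 of the 74 genes, beside 64.1% of all. Under the mean of the controls lay 54 genes in siRNA replicate 1 (63.7% of all genes), 62 in siRNA replicate 2 (60.8%) and 43 in both (40.8%). In 30 of the 74 they lay on opposite sides of the mean of the controls, beside 42.9% of all. Across the 74 genes, log2 levels correlated at Pearson r = 0.888 between the controls, 0.878 and 0.843 between them and siRNA replicate 1, and 0.654 to 0.722 between siRNA replicate 2 and the rest. These r values describe genes of shared libraries.

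Some genes went far below siRNA replicate 1 in siRNA replicate 2. Mrpl53 stood at 50.7 and 22.8 FPKM in the controls, at 55.3 in siRNA replicate 1 and at 0.564 in siRNA replicate 2, a gap of -5.17 log2 units between the siRNA libraries. Mrps18b, Mrpl27, Mrps23 and Mrpl55 followed, with gaps of -4.05, -3.99, -3.79 and -3.52. Among 38 genes that reached 20 FPKM in each of the other 3 libraries, 3 were under 1 FPKM in siRNA replicate 2 (Mrpl53, Mrpl55 and Mrps18b), beside 4.53% of such genes among all tested.

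Other genes were higher in siRNA replicate 2 than in siRNA replicate 1. The 5 with the largest such gap all belong to the large subunit, as do 46 of the 74 tested genes by name. Mrpl12 and Mrpl10 encode proteins of the stalk that recruits translation factors. Mrpl12 stood at 75.1 and 72.5 FPKM in the controls, at 21.6 in siRNA replicate 1 and at 92.4 in siRNA replicate 2. Mrpl10 showed 16.01 and 12.4 FPKM in the controls, against 11.2 FPKM in siRNA replicate 1 and 37.5 in replicate 2. Both stalk genes were thus below the controls in 1 siRNA library and above them in the other. Mrpl38 (4.19 and 4.15 FPKM in the controls, 0.322 and 17.5 with siRNA) had the widest gap, 3.81 log2 units. Mrpl54 (38.0 and 45.1 FPKM in the controls, 7.59 and 27.1 with siRNA) lay below the controls in both, and Mrpl57 (30.0 and 37.5 in the controls, 14.3 and 33.6 with siRNA) in siRNA replicate 1 only. A gap of more than 1 log2 unit with siRNA replicate 2 higher was seen in 6 Mrpl and 0 Mrps genes, beside 27.1% of all tested genes, and with siRNA replicate 2 lower in 19 Mrpl and 14 Mrps genes, beside 33.9%.

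**Figure D4:**
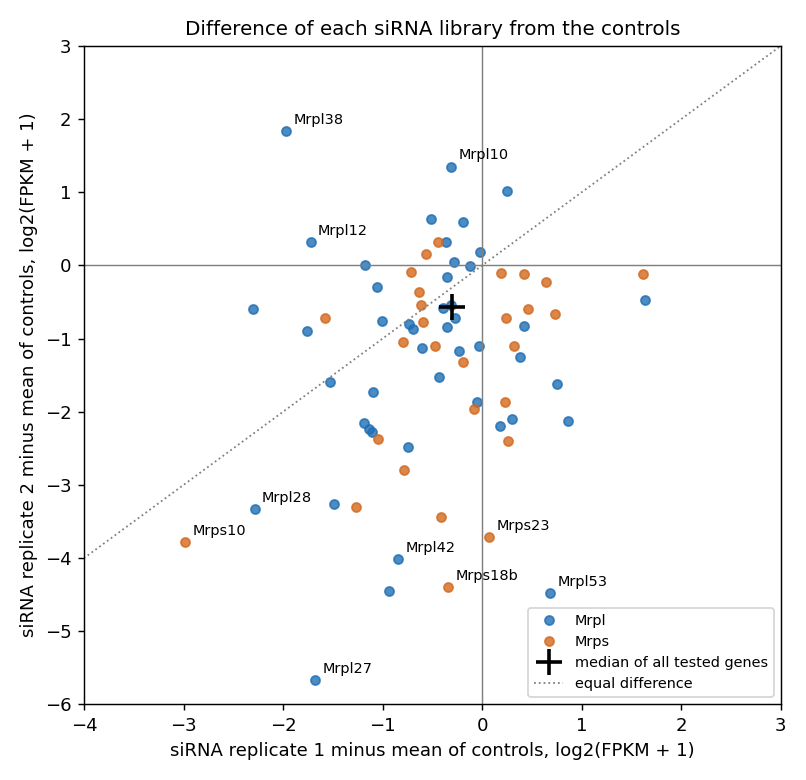
Difference of each siRNA library from the mean of the controls in log2(FPKM + 1), siRNA replicate 1 on the x axis and siRNA replicate 2 on the y axis, with 1 point per tested gene and a cross at the median of all tested genes (-0.30 and -0.57). Most points lie below the line of equal difference, and Mrpl38, Mrpl12 and Mrpl10 lie above 0 on the y axis.

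Transcript length moved with the difference over all genes, and the mitochondrial ribosomal protein genes are short, with a median length of the longest annotated transcript of 1760.5 bases beside 2681 over all tested genes. Under 1000 bases the median log2 difference was -0.79 in 17 genes of the family and -0.88 over all tested genes. From 1000 to 2000 bases it was -0.76 (24 genes) and -0.66, from 2000 to 4000 bases -0.63 (23 genes) and -0.28, and from 4000 bases -0.46 (10 genes) and -0.025. The siRNA libraries differed in this respect. Over all tested genes the median went from -0.31 under 1000 bases to -0.24 from 4000 bases in siRNA replicate 1, and from -1.47 to 0.22 in siRNA replicate 2. Under 1000 bases the family had -0.59 in siRNA replicate 1 and -0.88 in siRNA replicate 2, so it was lower than all genes of that length in 1 library and higher in the other. From 2000 to 4000 bases it had -0.28 beside -0.33 over all genes in siRNA replicate 1, and -0.76 beside -0.30 in siRNA replicate 2. In the other length classes the family was lower than all genes in both siRNA libraries. From 1000 to 2000 bases it had -0.52 beside -0.37 in siRNA replicate 1 and -1.10 beside -1.04 in siRNA replicate 2. From 4000 bases it had -0.38 beside -0.24 and -0.68 beside 0.22.

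The 77 genes lie on 17 chromosomes, with the highest numbers on chromosomes 11 (10 genes) and 17 (8 genes). Mrps11 and Mrpl46, 1 gene of each subunit on chromosome 7, overlap by 413 bases on opposite strands and were chosen after their values were seen. Mrps11 stood at 56.7 and 37.0 FPKM in control libraries and at 26.1 and 5.72 with siRNA. Mrpl46 stood at 51.9 and 32.4 FPKM in control libraries and at 53.8 and 16.6 with siRNA, above both controls in siRNA replicate 1. The labels' protocols name no step that marks strand, so reads of the shared stretch cannot be told apart.

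Genes that work with the mitochondrial ribosome were counted from lists of the same pathway. Of 6 ribosomal proteins found under other names, all tested, 0 passed the threshold (limma), 1 lay below and 2 above both controls in both siRNA libraries, beside 30.0% and 8.6% of all tested genes. Dap3, a GTP-binding protein of the small subunit, stood at 5.73 and 7.61 FPKM in control libraries and at 13.4 and 40.0 with siRNA. Chchd1, also of the small subunit, showed 5.25 and 3.15 FPKM in control libraries and 5.97 and 20.4 with siRNA, so these 2 had both siRNA libraries above both controls. Ict1, a peptidyl-tRNA hydrolase built into the large subunit, showed 15.6 and 11.1 FPKM in control libraries and 7.31 and 0.118 with siRNA.

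Of 19 tested genes for ribosome assembly and rRNA modification, 0 passed the threshold (limma), 5 lay below and 1 above both controls, counts near those shares of all genes, and the median log2 difference was -0.39, as over all genes. Dhx30, an RNA helicase for assembly, stood at 28.8 and 32.5 FPKM in the controls, at 37.5 in siRNA replicate 1 and at 351 in siRNA replicate 2. Mterf3 (43.5 and 30.4 FPKM in the controls, 23.8 and 8.81 with siRNA) and the GTPase Mtg1 (8.30 and 1.75 in the controls, listed at 0 or near 0 with siRNA) had both siRNA values below both controls. Of 14 tested translation factors, 0 passed the threshold (limma), both siRNA libraries were below both controls in 5 and above them in 0, again beside 30.0% and 8.6% of all, and the median was -0.69. Mrrf, the ribosome recycling factor, stood at 16.5 and 13.0 FPKM in control libraries and at 7.10 and 0.727 with siRNA. Slirp, which stabilises mitochondrial mRNAs, stood at 82.4 and 49.3 FPKM in control libraries and at 31.9 and 33.6 with siRNA, and Mtfmt, which formylates the initiator tRNA, at 5.70 and 3.98 in the controls and 1.89 and 0.373 with siRNA.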

How the data were processed

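RNA of the 4 libraries was primed with oligo(dT), amplified as full-length cDNA with a kit for single cells and sequenced as paired ends, per the labels' protocols. The authors deposited 1 table per library of FPKM values with a lower and an upper bound, per the file headers. Per the submitters' processing notes the build was mm10, and the tools named are Cufflinks 2.2.1, Cuffdiff 2.2.1, STAR 2.7.3a, SAMtools 1.7 and Trim Galore 0.6.5. The sources used here do not give the annotation release. All 77 genes matched GENCODE M21 by identifier and symbol, which gave coordinates, exons and length.

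Libraries were grouped by the treatment label and numbered by accession. Sample titles of the 2 groups end differently, so a batch, if that is what the ending marks, cannot be told apart from the group. The labels do not say whether replicates are separate mice, and p-values measure the spread of these libraries only, which may be technical. Genes that reached 1 FPKM in 2 or more libraries were tested, without 2 that the authors' program marked as failed. Testing used limma 3.58.1 (R 4.3.3) on log2(FPKM + 1), two-sided, with an abundance trend and Benjamini-Hochberg adjustment over 12390 genes at a threshold of 0.05. It was tested on simulated data. An exact permutation test of 2 against 2 cannot go below p = 0.333. Implied fragments are (2 FPKM / (upper bound - FPKM)) squared. They are not read counts, since the values are often not whole and the bounds can hold more than counting error. For Rn18s-rs5 they were 1705 at 183 FPKM in control replicate 2 and 2336 at 14506 FPKM in siRNA replicate 2. They do not count molecules either, because PCR copies are not independent molecules.

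The genes named are Uqcc3, the 12 with the smallest unadjusted p, any above both controls in both siRNA libraries, the 4 highest and 2 lowest tested of each subunit, the 5 with the largest gap between the siRNA libraries in each direction, those not tested, the S18 family, Mrps30 and Mrps36, and 3 genes of each pathway list by p. The genes and lists were chosen with earlier results of these data known. Alternatives were other scalings, filters and pseudocounts, no trend, and leaving out each library. Python 3.11.15 with pandas 2.3.3 and matplotlib 3.10.9 made the summaries.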

Additional observations from a re-analysis of the deposited data

How the results depend on the processing

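With TPM, length correction, median-of-ratios scaling and quantile normalization, the Mrpl genes below both controls in both siRNA libraries numbered 12, 10, 14 and 12 in place of 23, and the Mrpl median was -0.31, -0.25, -0.32 and -0.24 in place of -0.70. The Mrps genes numbered 7 (TPM), 6 (length correction) and 7 (quantiles) in place of 11. Leaving out each library in turn gave 29 to 32 Mrpl genes and 13 to 21 Mrps genes, while the share of all tested genes also went from 30.0% to between 41.9% and 50.5%. It gave an Mrpl median of -1.11 to -0.41 and an Mrps median of -0.91 to -0.38. Without siRNA replicate 1, 1477 genes passed the limma threshold, of which 15 were mitochondrial ribosomal protein genes and all 15 lower. That fit takes the spread of the controls for the lone siRNA library, and with every other library left out the counts were 0 and 0. Mrpl minus Mrps was -0.27 to 0.24 over the libraries left out, and its sign turned with TPM (-0.0057), length correction (-0.082), a pseudocount of 0.1 (-0.0069) and subunits from structures (-0.053).

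Single genes changed direction. Without siRNA replicate 1 the log2 difference was 0.32 for Mrpl12, 1.84 for Mrpl38, 0.0024 for Mrpl57, -0.12 for Mrps18c and -0.22 for Mrps5. Without siRNA replicate 2 it was -0.31 for Mrpl10, 0.42 for Mrpl19, 0.30 for Mrpl36, 0.68 for Mrpl53, 0.32 for Mrps21, 0.070 for Mrps23 and 0.46 for Mrps36. Without control replicate 1 it was 0.69 for Mrpl19, 0.24 for Mrps21 and 0.17 for Mrps36, and without control replicate 2 -0.40 for Mrps5. With TPM it was 0.0055 for Mrpl13, 0.17 for Mrpl38, 0.030 for Mrps21 and 0.18 for Mrps36. With length correction it was 0.011 for Mrpl12, 0.040 for Mrpl18, 0.61 for Mrpl38, 0.12 for Mrpl40, 0.47 for Mrps21 and 0.80 for Mrps36. With median-of-ratios scaling it was 0.20 for Mrpl38 and 0.17 for Mrps36, and with quantiles 0.076 for Mrpl13, 0.37 for Mrpl19, 0.030 for Mrpl38 and 0.57 for Mrps36. The median of all tested genes was 0.013 with quantiles. Over the libraries left out, the differences of these genes ranged from -0.31 to 1.35 (Mrpl10), -1.72 to 0.32 (Mrpl12), -1.10 to 0.69 (Mrpl19), -2.10 to 0.30 (Mrpl36), -1.97 to 1.84 (Mrpl38), -4.49 to 0.68 (Mrpl53), -1.18 to 0.0024 (Mrpl57), -3.72 to 0.070 (Mrps23), -0.59 to 0.46 (Mrps36) and -0.40 to 0.81 (Mrps5). The cause was not tested. No paired analysis was possible because the labels carry no replicate numbers.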

Other observations

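Pseudogenes of 3 mitochondrial ribosomal protein genes are listed in the tables beside them, and how fragments were shared between near-identical copies was not tested. Mrpl48-ps had 11.6 and 17.4 FPKM in control libraries and at 23.5 and 3.31 FPKM with siRNA. Mrps36-ps1 stood at 1.04 FPKM in siRNA replicate 1 and at 0 in siRNA replicate 2, and Mrps36-ps3 was listed at 0 in all 4 libraries. The levels of Mrpl48 and Mrps36 are uncertain for this reason, as is that of Mrpl23.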
